A study of Mus musculus with 7 samples.

Results

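The 10 arms described here are the mature products of 2 small gene clusters that each encode a miR-23, a miR-27 and a miR-24 hairpin. The rule that picks them from 1914 mature mouse miRNA rows is the miRNA's name: mmu-miR-23a-3p, mmu-miR-27a-3p, mmu-miR-27a-5p and mmu-miR-24-2-5p of the a cluster, mmu-miR-23b-3p, mmu-miR-23b-5p, mmu-miR-27b-3p, mmu-miR-27b-5p and mmu-miR-24-1-5p of the b cluster, and mmu-miR-24-3p, which both clusters make. Small RNA was sequenced from lateral ventricles with choroid plexus, dissected from adult mice of the C57BL/6J strain, in 4 TAp73 knockout and 3 wild type libraries. TAp73, a p73 isoform with a transactivation domain, is a transcription factor, and the series concerns its part in making brain cells with many motile cilia. The labels give neither an exact age, a sex or the type of knockout allele, nor say that each library is a separate animal, so p-values reflect library-to-library spread only. Trp73 mRNA is not measured by these small RNA libraries, so the genotype labels were not checked against it.

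The 3 miRNAs of a cluster are cut from one primary transcript, so they share its transcription but can differ in processing and decay. The a cluster is known for its expression in endothelium and blood cells, and miR-23 and miR-27 are known regulators of angiogenic sprouting, where they act on inhibitors of growth factor signalling. The b cluster is expressed in many tissues, brain included. miR-27 is also known as a repressor of adipocyte differentiation, and miR-24 as a repressor of cell cycle and apoptosis genes.

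The sequences show which arms can be told apart by reads and which share targets. RefSeq (build GRCm38.p6) held 9 of the 10 arms, and miR-23b-3p is named only. The 9 sequences have 7 distinct seeds, where the seed is bases 2 to 8, written in capitals.
miR-23a-3p: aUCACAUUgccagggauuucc
miR-27a-3p: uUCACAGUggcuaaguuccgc
miR-27b-3p: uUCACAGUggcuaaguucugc
miR-24-3p: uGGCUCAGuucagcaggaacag
miR-27a-5p: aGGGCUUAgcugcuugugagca
miR-27b-5p: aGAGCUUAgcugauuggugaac
miR-23b-5p: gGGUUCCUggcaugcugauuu
miR-24-1-5p: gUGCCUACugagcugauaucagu
miR-24-2-5p: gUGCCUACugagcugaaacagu
Counted from the 5′ end, miR-27a-3p differs from miR-27b-3p by a single substitution, C19U, outside the seed. How reads with a mismatch or a short 3′ end were assigned between these 2 rows is not stated in the labels. Compared base by base without gaps, the 5p arms of miR-24 have the same first 16 bases and differ at 5 of the later positions. The 5p arms of miR-27 differ at 8 positions, 1 of them in the seed (G3A). A shift by 1 base counts here as several differences, so these numbers can overstate how unlike the arms are. miR-128-3p, an abundant neuronal miRNA, shares a stretch of 8 bases with miR-27b-3p that starts at base 2 of miR-27b-3p and base 1 of miR-128-3p. Its seed is therefore that of miR-27 moved by 1 base:
miR-128-3p: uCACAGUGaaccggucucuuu

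In GRCm38, the a cluster lies on chromosome 8 (84208518 to 84208921, plus strand), in the order Mir23a (84208518 to 84208592), Mir27a (84208672 to 84208758) and Mir24-2 (84208815 to 84208921). In the GENCODE M21 annotation, Mir23a and Mir27a overlap no other gene, and the last bases of Mir24-2 meet the first exon of the long noncoding RNA gene Gm26532 (84208920 to 84209609, plus strand). The b cluster spans 792 bases on chromosome 13 (63300484 to 63301275, plus strand), with Mir23b at 63300484 to 63300557, Mir27b at 63300712 to 63300784 and Mir24-1 at 63301208 to 63301275. It lies within the protein-coding gene 2010111I01Rik, an aminopeptidase gene that RefSeq names Aopep, on its own strand and opposite to Fancc. Mir23b is intronic in each annotated transcript, while Mir27b and Mir24-1 also fall in untranslated exons of nonsense-mediated decay transcripts of 2010111I01Rik. Mir3074-1 and Mir3074-2 are annotated on the other strand of the miR-24 hairpins. miR-3074-5p had 39 reads over all libraries, miR-3074-1-3p had 24 and miR-3074-2-3p had 0, so the opposite strand contributed few reads.

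Libraries held 955057 to 9233235 mouse miRNA reads, which were 98.6% to 99.0% of assigned reads. The shallowest was knockout replicate 3, where 0 reads allow up to 3.14 counts per 1000000 mouse miRNA reads (CPM). Markers of the dissected tissue were present in each library: miR-204-5p, abundant in choroid plexus epithelium, ran from 2006 to 11775 CPM, and miR-34c-5p, abundant in multiciliated cells, from 304.7 to 3430 CPM. The other listed marker of each was lower, miR-211-5p at 2.47 to 7.33 CPM and miR-449a-5p at 18.5 to 189.3 CPM. The endothelial miR-126a-3p ran from 785.3 to 984.8 CPM, while miR-126a-5p was listed at 0 in all 7. In such bulk tissue, fewer cells of a type and less of a miRNA per cell cannot be told apart. Levels below compare mature molecules of 21 to 23 bases, so no length correction applies, but adapters are ligated to different miRNAs with unequal efficiency. A ratio between arms is therefore one of reads, not of molecules.

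A single arm of the b cluster dominated the pooled reads of the 10 arms. miR-27b-3p stood at 29407 ± 2565 CPM (SD, n = 7) and was the 9th most abundant mouse miRNA in each library. It made up 94.4% ± 0.63 of the reads of the 10 arms, which together held 3.11% ± 0.26 of mouse miRNA reads. In knockout replicates 1 to 4 miR-27b-3p was 30331, 32610, 26236 and 32384 CPM, and in wild type replicates 1 to 3 it was 28350, 29421 and 26519 CPM. The groups overlapped, with the lowest value in knockout replicate 3. Its near-identical partner miR-27a-3p was 324.4, 471.1, 359.1 and 419.3 CPM in the knockouts and 410.7, 390.2 and 391.5 CPM in the wild types, so that the wild types lay inside the knockout range.

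Next in order came miR-23b-3p at 596.8 ± 79.6 CPM, miR-27a-3p at 395.2 ± 46.4, miR-24-3p at 381.6 ± 58.6 and miR-23a-3p at 228.7 ± 33.4 CPM (SD, n = 7). miR-23b-3p exceeded miR-27a-3p in 7 of 7 libraries, and miR-24-3p exceeded miR-23a-3p in 7 of 7. miR-27a-3p and miR-24-3p were not separated, since miR-27a-3p was higher in 5 libraries and lower in 2. Lower still were miR-24-2-5p at 82.8 ± 14.96 CPM, miR-27b-5p at 25.8 ± 4.44 and miR-24-1-5p at 16.8 ± 5.21 CPM. The last 2 overlapped in range, with miR-27b-5p higher in 6 of 7 libraries.

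Of the rarest arms, miR-27a-5p had 7, 6, 3 and 3 reads in the knockouts and 1, 3 and 1 in the wild types. miR-23b-5p had 6 reads in all, with 0 reads in 4 libraries, where that count allows up to 0.773 to 3.14 CPM. The arm that completes the Mir23a hairpin, miR-23a-5p, is not among the 10 and had 1 read. The limits for 0 reads and the Wilson intervals of read shares cover counting error within a library only. The libraries carry no molecular identifiers, so copies of one molecule are counted as separate reads. The edgeR intervals also include spread between libraries.

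**Figure D1:**
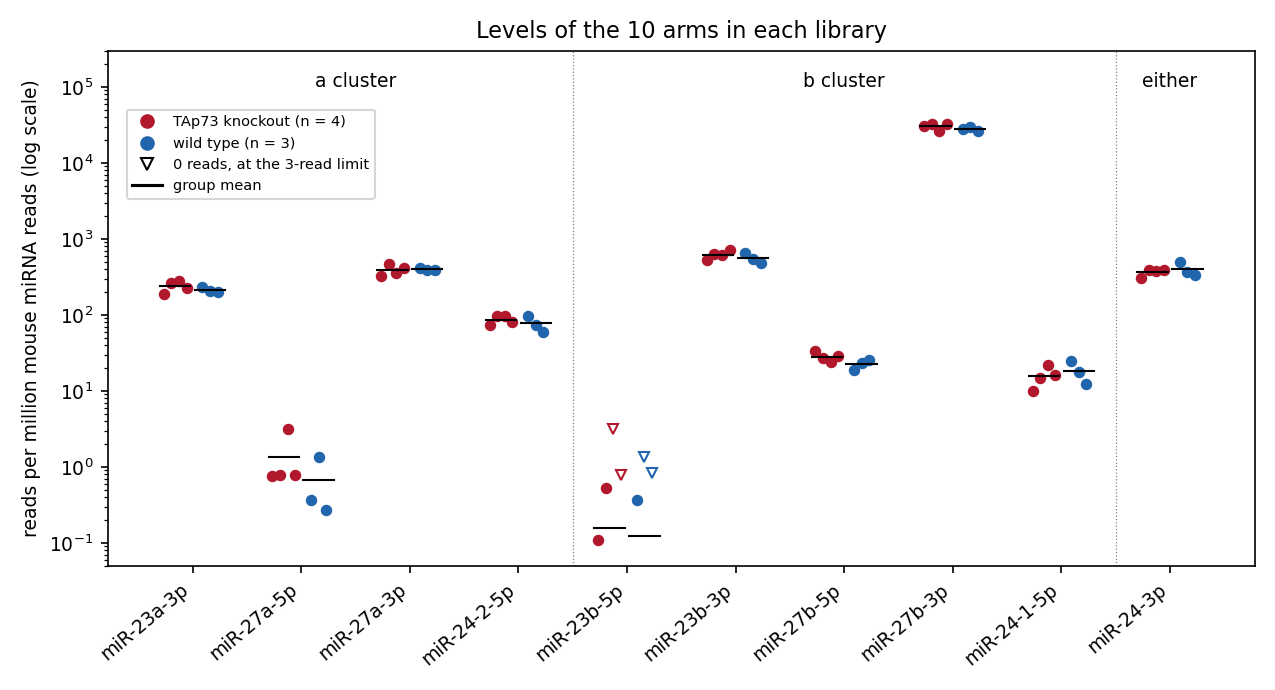
Level of each arm in CPM (log scale) in 4 knockout (red) and 3 wild type (blue) libraries; bars are group means and open triangles mark 0 reads at the 3-read limit. miR-27b-3p lies near 29407 in both genotypes, 49.3 times the mean of the next arm, and the genotypes overlap in each arm.

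The b cluster gave more reads than the a cluster, but not at each position. Summed over the arms that belong to one cluster only, the b cluster had 42.8 ± 5.24 times the reads of the a cluster (SD, n = 7, range 36.3 to 52.3). Position by position, b exceeded a for miR-27 and miR-23, and a exceeded b for the 5p arm of miR-24. The a share was lowest for the miR-27 3p arms, then the miR-23 3p arms, then the miR-24 5p arms in 7 of 7 libraries.

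For miR-27, the a arm took 1.33% ± 0.14 of the combined 3p reads (SD, n = 7). The lowest share was 1.06% in knockout replicate 1 (95% Wilson interval 1.02 to 1.10, 283047 reads) and the highest 1.45% in wild type replicate 3 (1.38 to 1.53, 98145 reads). miR-27b-3p was thus 74.6-fold above miR-27a-3p on the geometric mean (67.7 to 93.5). Since these rows differ by the substitution C19U alone, the small share of miR-27a-3p also depends on how mismatched reads were counted, and their part was not tested. The 5p arms, which differ at 8 positions when compared without gaps, gave the same order with far fewer reads. miR-27b-5p was 26.4-fold above miR-27a-5p, with a range of 6.71 to 62.3 on counts of 1 to 7 for miR-27a-5p. With 5 added to each count in place of 0.5, this became 11.5-fold.

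For miR-23 the a arm took a larger part, 27.7% ± 2.27 of the combined 3p reads (SD, n = 7). It was 26.7%, 28.9%, 31.5% and 24.4% in the knockouts and 26.3%, 27.4% and 28.9% in the wild types. Both extremes were knockouts, and miR-23b-3p was 2.61-fold above miR-23a-3p on the geometric mean (2.18 to 3.10). How reads were divided between these 2 rows is not stated either, and its part in the share was not tested.

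The miR-24 5p arms ran the other way. miR-24-2-5p of the a cluster took 83.3% ± 3.05 of the combined 5p reads (SD, n = 7), at 88.1%, 86.6%, 81.6% and 83.1% in the knockouts and 79.8%, 80.9% and 82.8% in the wild types. It was 5.01-fold above miR-24-1-5p (3.92 to 7.39). The shallowest library, knockout replicate 3, gave 81.6% from 114 reads (Wilson interval 73.5 to 87.6). How much of miR-24-3p came from each locus cannot be read from its sequence, which is the same in both hairpins.

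Each of these 4 ratios had the same sign in all 7 libraries. In exact sign-flip permutation tests over the 7 libraries, two-sided, the mean log2 ratios of a over b were -6.22 ± 0.16 for the miR-27 3p arms, -4.72 ± 1.06 for the miR-27 5p arms, -1.38 ± 0.16 for the miR-23 3p arms and 2.32 ± 0.34 for the miR-24 5p arms (SD, n = 7). Each had an exact p = 0.0156, raw and adjusted over the 4, which is the smallest this design allows.

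**Figure D2:**
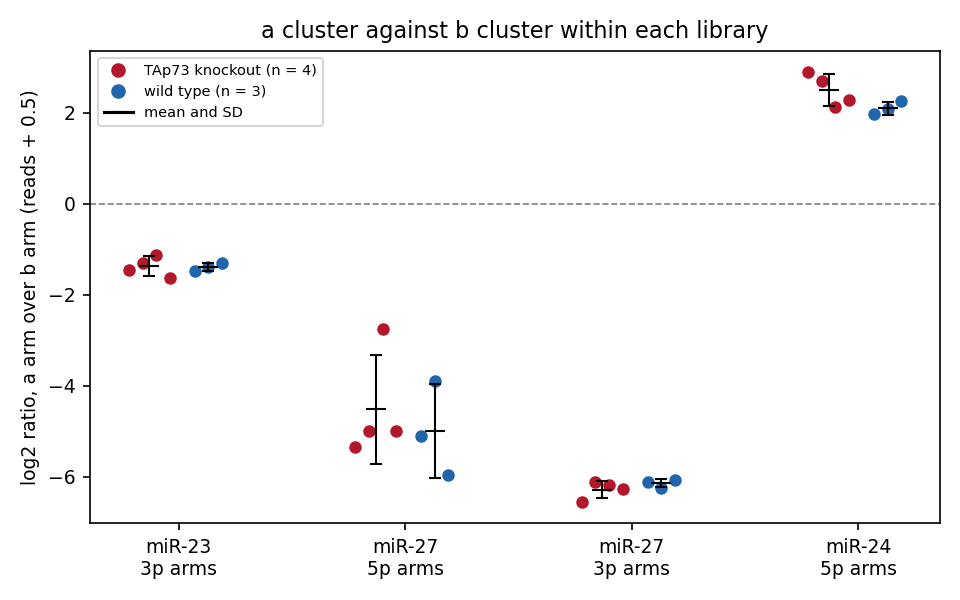
Log2 ratio of the a arm to the b arm in each library, from reads plus 0.5, with mean and SD by genotype. The miR-23 and miR-27 ratios lie below 0 in each library, the miR-24 5p ratios lie above 0, and the genotypes overlap at each position.

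Output within a cluster was unequal, and more so in the b cluster. miR-27b-3p made up 97.9% ± 0.24 of the b cluster reads and miR-23b-3p 1.99% ± 0.23 (SD, n = 7). The former exceeded the latter 49.5-fold on the geometric mean, from 42.7-fold in knockout replicate 3 to 57.8-fold in knockout replicate 1. In the a cluster, reads were spread more evenly: miR-27a-3p took 55.9% ± 3.74, miR-23a-3p 32.3% ± 2.59 and miR-24-2-5p 11.7% ± 1.45. These shares leave out miR-24-3p, which both clusters make. At a mean of 381.6 CPM it was near miR-27a-3p (395.2 CPM), so the a cluster shares would be lower with its unknown a part counted. miR-27a-3p exceeded miR-23a-3p 1.73-fold (1.27 to 1.97).

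The 5p arms were ordered differently on average in the 2 clusters. In the a cluster miR-24-2-5p was 84.1-fold above miR-27a-5p (35.1-fold with counts plus 5), while in the b cluster miR-24-1-5p was 1.57-fold below miR-27b-5p on the geometric mean. By exact sign-flip permutation tests, two-sided, the log2 ratios of miR-27b-3p to miR-23b-3p (5.63 ± 0.17), of miR-27a-3p to miR-23a-3p (0.79 ± 0.21), of miR-24-2-5p to miR-27a-5p (6.39 ± 0.95) and of miR-27b-5p to miR-23b-5p (6.56 ± 1.15, SD, n = 7) passed, each with adjusted p = 0.0195 over 5 ratios. The value added to each count sets the size of those with rare arms: with 5 in place of 0.5, the ratio of miR-27b-5p to miR-23b-5p was 4.04 and that of miR-24-2-5p to miR-27a-5p was 5.13. That of miR-24-1-5p to miR-27b-5p, -0.65 ± 0.68, had an exact adjusted p = 0.0469, but wild type replicate 1 went the other way at 0.39. Leaving out knockout replicate 1, 2, 3 or 4 or wild type replicate 2 or 3 ended this last call. The ratios were then -0.74 to -0.47 (exact sign-flip adjusted p = 0.0625 to 0.0938). These misses were fixed in advance, since with wild type replicate 1 kept the exact p cannot fall below 0.0625. Only without wild type replicate 1 did the call hold (-0.83, exact adjusted p = 0.0312).

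The 5p arm took a small part of miR-27 reads from both hairpins. It was 0.088% ± 0.013 for miR-27b and 0.279% ± 0.28 for miR-27a (SD, n = 7). The latter rested on knockout replicate 3, where 3 of 346 reads gave 0.867%, and was 0.181% ± 0.10 (SD, n = 6) without it, a library left out after its value was seen. The share of miR-27a was the higher in 6 of 7 libraries, on 1 to 7 reads each. The 5p arms of miR-24 took 20.7% ± 2.03 of all miR-24 reads, a far larger part. Per library, this 5p share was 21.4%, 22.4%, 23.8% and 19.9% in the knockouts and 19.8%, 19.9% and 17.5% in the wild types. The groups met at knockout replicate 4 and wild type replicate 2 without overlapping (19.92% against 19.90%), a gap far inside the Wilson intervals of these libraries (18.2 to 21.8 and 17.6 to 22.5).

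The genotypes were compared to ask whether loss of TAp73 changed either cluster. No arm was called. Of the 10 arms, 8 passed the low-count filter and were tested, miR-23b-5p and miR-27a-5p did not pass it, and 0 of the 8 had an edgeR adjusted p under 0.05, where 1.12% of the 534 tested miRNAs were called. At an unadjusted p under 0.05 the count was also 0 of 8, against 12.9% of all tested. DESeq2 called 0 of the 8 as well, against 2.76% of the 471 miRNAs it adjusted. The CPM ranges of the genotypes did not separate for any of the 8, and 11.8% of all tested miRNAs had groups that did not overlap. With only 8 arms, counts of 0 cannot be told apart from these shares. Of the cell markers in the same fit, only those of multiciliated cells were called, and in opposite directions. miR-34c-5p fell by 2.40 on the log2 scale and miR-449a-5p rose by 2.67 (SE 0.33 and 0.41, edgeR adjusted p = 0.0048 for both). The other tested markers were at -0.36 to 0.82 and none was called (edgeR adjusted p = 0.38 to 0.96). The summed level of miR-34c-5p and miR-449a-5p was 349.7 to 710.0 CPM in knockouts and 1202 to 3450 CPM in wild types, mostly miR-34c-5p in each library. As they moved in opposite directions, whether this sum follows the number of multiciliated cells cannot be told. The part of these cells in the levels of the arms was not tested.

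Most arms leaned slightly higher in the knockout libraries. The median log2 fold change of the 8 was 0.21 (6 of 8 positive), and that of all tested miRNAs was -0.02 (47.2% positive). The arm nearest to the threshold was miR-27b-5p, at 33.1, 26.8, 24.1 and 28.6 CPM in the knockouts and 18.9, 23.5 and 25.5 CPM in the wild types. Its means were 28.1 ± 3.81 (SD, n = 4) and 22.6 ± 3.38 CPM (SD, n = 3), and only knockout replicate 3 lay below a wild type library. The edgeR log2 fold change was 0.42 ± 0.20 (SE, 95% interval -0.02 to 0.85, adjusted p = 0.42). The abundant arm of the same hairpin, miR-27b-3p, was at 0.19 ± 0.12 (-0.07 to 0.44, edgeR adjusted p = 0.54), an interval that reaches a 1.36-fold higher level at most.

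The miR-23 arms were close to each other in this comparison. miR-23a-3p was 191.5, 261.5, 281.7 and 229.6 CPM in the knockouts and 232.0, 206.2 and 198.5 CPM in the wild types, and knockout replicate 1 was the lowest of the 7. Its log2 fold change was 0.25 ± 0.17 (-0.12 to 0.62, edgeR adjusted p = 0.57). miR-23b-3p was 524.6, 643.0, 613.6 and 711.5 CPM in the knockouts and 650.9, 545.3 and 488.9 CPM in the wild types, again with overlap. Its log2 fold change was 0.22 ± 0.16 (-0.12 to 0.57, adjusted p = 0.59). With both miR-23 3p rows summed before the fit the value was 0.23 ± 0.15 (-0.10 to 0.55, edgeR adjusted p = 0.56), which lies between the values of the separate rows.

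miR-27a-3p and the miR-24 arms lay on both sides of 0. miR-27a-3p was at 0.06 ± 0.15 (-0.28 to 0.40, edgeR adjusted p = 0.87), which turned to -0.01 with library totals in place of TMM scaling. miR-24-3p was 309.1, 387.7, 383.2 and 385.2 CPM in the knockouts and 496.7, 371.2 and 337.8 CPM in the wild types. The wild types enclosed all knockouts except replicate 1, and the log2 fold change was -0.06 ± 0.17 (-0.44 to 0.31, edgeR adjusted p = 0.87). It became 0.12 without wild type replicate 1, the highest library, and 0.0044 without knockout replicate 1. miR-24-2-5p was at 0.23 ± 0.21 (-0.23 to 0.70) and miR-24-1-5p at -0.22 ± 0.32 (-0.92 to 0.48, edgeR adjusted p = 0.67 and 0.78). The latter rested on 21 to 115 reads a library and became 0.07 without wild type replicate 1.

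**Figure D3:**
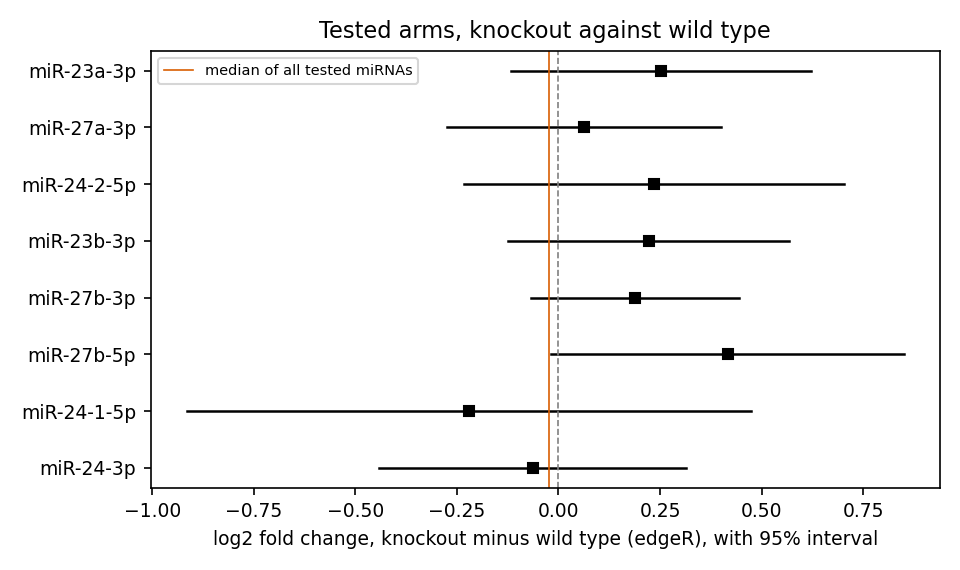
Log2 fold change of each tested arm, knockout minus wild type, from edgeR (squares) with its 95% interval (lines); the orange line is the median of all 534 tested miRNAs, -0.02. Each of the 8 intervals includes 0, and the widest belongs to miR-24-1-5p.

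Differences in sums over clusters and families did not pass a test either. Knockout libraries held 722.8 ± 99.0 CPM of a cluster arms (SD, n = 4) against 687.6 ± 47.6 in the wild types (SD, n = 3), a difference of 0.06 in mean log2 level. For the b cluster the means were 31058 ± 2983 and 28699 ± 1511 CPM, a log2 difference of 0.11. The miR-23, miR-27 and miR-24 families differed by 0.16, 0.11 and -0.07. By two-sided exact permutation tests over all groupings of the libraries, adjusted p over the 6 sums ran from 0.43 to 0.80. The smallest raw p this design allows is 0.029, or 0.17 after adjustment where 1 of the 6 sums alone reaches it.

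Ratios within a library do not depend on scaling, and none of the 8 examined passed. In each family of 4, a single ratio could not reach an exact adjusted p below 0.11, so a miss says little. The a-to-b log2 ratio differed between knockout and wild type by 0.02 for the miR-23 3p arms, -0.14 for the miR-27 3p arms, 0.47 for the miR-27 5p arms and 0.40 for the miR-24 5p arms (exact permutation adjusted p = 0.57 to 0.89 over 4 ratios). The 3p-to-5p log2 ratio of miR-24 averaged 1.84 ± 0.14 over the knockouts (SD, n = 4) against 2.09 ± 0.13 over the wild types (SD, n = 3). This difference of -0.25 had the smallest p of its family and did not pass (exact permutation p = 0.057, adjusted p = 0.23 over 4 ratios). For miR-27b the difference was -0.21 and for miR-27a -0.81, the latter on 24 reads of the 5p arm in all (exact permutation adjusted p = 0.57 for both). The miR-27a value was -0.037 with counts plus 5 and -1.40 to -0.25 when each library was left out in turn. For miR-23b, with 6 reads of the 5p arm, it was 0.02 (exact permutation adjusted p = 0.97).

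**Figure D4:**
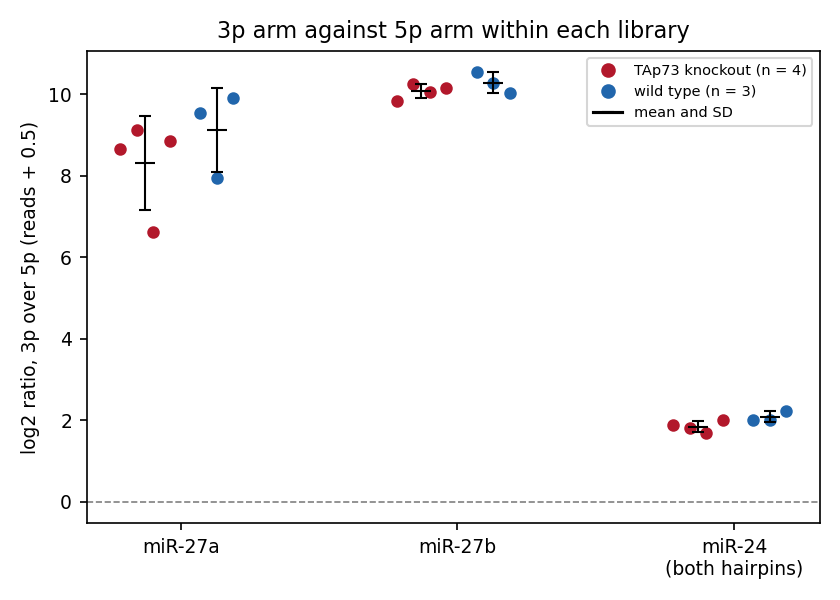
Log2 ratio of the 3p to the 5p arm in each library, from reads plus 0.5, with mean and SD by genotype. miR-27b lies near 10 and miR-24 near 2 in both genotypes, and the miR-24 knockout mean of 1.84 lies below the wild type mean of 2.09 with the groups touching.

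The a cluster was set beside the vessel marker miR-126a-3p, which endothelial cells express strongly. miR-126a-3p was 957.2, 984.8, 785.3 and 922.0 CPM in the knockouts and 951.9, 880.8 and 980.8 CPM in the wild types (edgeR log2 fold change 0.04 ± 0.13, adjusted p = 0.90). It was thus lowest in knockout replicate 3, the library in which miR-23a-3p was highest. Across the 7 libraries, log2 levels of miR-23a-3p and miR-126a-3p had Pearson r = -0.51 and Spearman rho = -0.29 (exact permutation p = 0.25 and 0.56), and r turned to 0.37 without knockout replicates 1 and 3, the libraries farthest from the median. miR-27a-3p and miR-126a-3p had r = 0.36 and rho = 0.43 (exact permutation p = 0.40 and 0.35, and r = 0.78 without knockout replicates 1 and 2).

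With levels as measured, no pair of arms passed adjustment across the libraries. miR-23a-3p and miR-27a-3p had r = 0.41 and rho = 0.39 (exact permutation p = 0.37 and 0.40), and r became 0.95 without knockout replicates 1 and 3. miR-23b-3p and miR-27b-3p had r = 0.49 and rho = 0.39 (exact permutation p = 0.26 and 0.40, and r = 0.43 without knockout replicate 1 and wild type replicate 3). The largest r values among the 13 pairs examined were those of miR-23a-3p with miR-23b-3p (r = 0.67, rho = 0.61, exact permutation p = 0.11 and 0.17) and of miR-23b-3p with miR-24-3p (r = 0.67, rho = 0.86, exact permutation p = 0.084 and 0.024). They became 0.77 and 0.30 without the 2 farthest libraries. None passed adjustment over the 13 pairs (smallest exact permutation adjusted p = 0.52 for r and 0.29 for rho). With levels centred on each genotype, miR-23b-3p with miR-24-3p rose to r = 0.92 (permutation adjusted p = 0.044). That p is not exact, because centred values were shuffled across genotypes though centring ties them within each genotype, so no call is made from it.

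Among 200 tested miRNAs with a mean of at least 100 CPM, those most like miR-23a-3p over the 7 libraries were miR-9-3p (Pearson r = 0.91), the erythrocyte miR-451a (0.87), miR-195a-5p (0.85), miR-30c-5p (0.82) and miR-30b-5p (0.82). Both erythrocyte markers, miR-451a and miR-144-3p, were highest in knockout replicate 3, as miR-23a-3p was, with a sum of 122.2 to 241.9 CPM in knockouts and 127.0 to 187.9 CPM in wild types. Their part in the level of miR-23a-3p was not tested. Those most like miR-23b-3p were miR-148b-3p (0.88), miR-484 (0.81), miR-30a-5p (0.79), miR-101a-3p (0.79) and miR-9-3p (0.78). These coefficients describe 7 points that share library depth and scaling.

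No other miRNA of a list linked to vessel growth was called. Of 25 listed, 23 were tested and edgeR called 0 in either direction, with 3 at an unadjusted p under 0.05 and a median log2 fold change of 0.06 (13 of 23 positive). Among all tested miRNAs, 1.12% were called, 12.9% had an unadjusted p under 0.05 and 47.2% were positive. The smallest p-values belonged to let-7f-5p (0.50 ± 0.12, edgeR adjusted p = 0.10), miR-132-3p (0.51 ± 0.17, 0.27), miR-195a-5p (0.46 ± 0.19, 0.38) and miR-92a-3p (0.28 ± 0.14, 0.42). miR-128-3p, which shares the shifted seed with miR-27, was 0.70 ± 0.20 and was not called (edgeR adjusted p = 0.15). Its groups did not overlap (17802 to 19444 CPM in knockouts, 8795 to 16666.5 CPM in wild types), as for 11.8% of all tested miRNAs. At 8795 to 19444 CPM it was below miR-27b-3p in each library.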

How the data were processed

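Small RNA libraries (TruSeq kit, total RNA isolated with phenol and chloroform, per the labels' protocols) came from 4 TAp73 knockouts and 3 wild types, grouped by genotype label. Without roles, bcl2fastq 2.17.1.14, DESeq2 and the mm10 build are listed, per the submitters' processing notes; which aligner, counter and miRNA annotation were used is not stated there. The deposited values are raw read counts per small RNA, not normalized by the authors. Each table has 66573 rows, 5 of them closing lines holding 0 reads. CPM divides a count by all reads in rows named mmu-. All mouse miRNA rows were fitted with edgeR 4.0.16 in R 4.3.3 (TMM scaling, filterByExpr with minimum count 10 and total 15, robust quasi-likelihood test), with Benjamini-Hochberg adjustment over 534 rows and calls under 0.05. Fold changes use TMM-scaled libraries. Ratios used counts plus 0.5 and exact tests over 35 groupings or 128 sign flips. Scripts were tested on simulated data.

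The arms, lists and tests were chosen with earlier results of these data known. Alternatives were DESeq2 1.42.0, limma-voom (limma 3.58.1), no robust estimation, RLE or total scaling, no filter or 10 CPM in 3 libraries, all species summed, near-identical arms summed, counts plus 5, TMM-scaled levels, genotype centring and leaving out libraries. Named are the 10 arms, their partner arms, miR-126a-3p, miR-128-3p, the 5 miRNAs most like miR-23a-3p and miR-23b-3p, and up to 4 smallest p-values of the vessel-linked list.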

Additional observations from a re-analysis of the deposited data

Results flagged for a closer look

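Of 28 values examined among the 4 knockout libraries, 3 had a library far from the others; chance alone gives about 1 in 20. On the log2 scale, miR-27a-5p was 1.65 in knockout replicate 3, from 3 reads, and -0.40 to -0.36 in the remaining knockouts, where the gap was 0.98 of the range. The log2 ratio of miR-27a-5p to miR-27b-5p was likewise -2.75 in knockout replicate 3 and -5.35 to -4.99 in the others, with a gap of 0.86 of the range. miR-24-3p was 8.27 in knockout replicate 1, the deepest library, and 8.58 to 8.60 in the other knockouts, which made the gap 0.95 of the range. With 3 libraries, the wild type group was not examined in this way.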

How the results depend on the processing

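No arm was called in any of the 17 alternatives to the edgeR fit, while calls among all tested miRNAs went from 6 to 13 with DESeq2, 19 with no filter, 3 to 14 when each library was left out in turn, and 19 without knockout replicate 3 and wild type replicate 2. At an unadjusted edgeR p under 0.05, miR-27b-5p passed without knockout replicate 3 (log2 fold change 0.46, edgeR adjusted p = 0.36). miR-27b-3p passed without knockout replicate 3 and wild type replicate 2 (0.31, edgeR adjusted p = 0.19). In the other settings no arm had an unadjusted p under 0.05. No paired analysis was possible because the replicate numbers used here follow accession order and the labels tie no knockout library to a wild type library. Of the fold changes, 3 turned sign in some setting, and none of them was called: miR-27a-3p became -0.013 with library totals and ranged from -0.046 to 0.14 when each library was left out in turn, miR-24-3p ranged from -0.20 to 0.12 and miR-24-1-5p from -0.50 to 0.073.

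Among differences between genotypes in log2 level or ratio, the miR-24 family sum became 0.0074 with TMM-scaled CPM. Leaving out each library in turn, it ranged from -0.20 to 0.10, the a cluster sum from -0.0065 to 0.16, the a-to-b ratio of the miR-23 3p arms from -0.064 to 0.11, that of the miR-27 5p arms from -0.12 to 1.01, and the 3p-to-5p ratio of miR-23b from -0.42 to 0.38. The miR-27 5p ratio was -0.29 with counts plus 5, and the mean ratios with rare 5p arms shrank with it, to -3.53 (miR-27a-5p to miR-27b-5p), 5.13 (miR-24-2-5p to miR-27a-5p) and 4.04 (miR-27b-5p to miR-23b-5p).

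In the same leave-one-out series the mean log2 ratios of a over b ranged from -1.43 to -1.34 (miR-23 3p), -6.24 to -6.17 (miR-27 3p), -5.05 to -4.52 (miR-27 5p) and 2.23 to 2.38 (miR-24 5p), and those within clusters from 0.76 to 0.87 (miR-27a-3p to miR-23a-3p), 6.22 to 6.67 (miR-24-2-5p to miR-27a-5p), 5.59 to 5.66 (miR-27b-3p to miR-23b-3p), 6.35 to 6.80 (miR-27b-5p to miR-23b-5p) and -0.83 to -0.47 (miR-24-1-5p to miR-27b-5p). Knockout replicate 3 and wild type replicate 2 had the lowest miR-204-5p, at 2006 and 2009 CPM, against 4993 to 11775 CPM in the others. The part of tissue content in the arms was not tested. With both of these libraries left out, chosen after seeing the data, 5 libraries remain and no sign-flip test can pass. The a-to-b ratios were then -1.43 (miR-23 3p), -6.22 (miR-27 3p), -5.28 (miR-27 5p) and 2.42 (miR-24 5p). The ratios within clusters were 0.86 (miR-27a-3p to miR-23a-3p), 6.89 (miR-24-2-5p to miR-27a-5p), 5.65 (miR-27b-3p to miR-23b-3p), 6.73 (miR-27b-5p to miR-23b-5p) and -0.81 (miR-24-1-5p to miR-27b-5p). The genotype difference in the miR-23 a-to-b ratio was -0.067 and that in the miR-23b 3p-to-5p ratio 0.40.

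Of the correlations, miR-27b-3p with miR-24-3p went from -0.022 to 0.17 with TMM-scaled CPM and 0.14 with genotype centring. miR-23b-3p with miR-126a-3p went from -0.15 to 0.13 with TMM-scaled CPM and 0.39 without the 2 farthest libraries, and miR-23a-3p with miR-126a-3p to 0.37. miR-23b-3p with miR-24-3p rose to 0.92 with genotype centring, where its permutation p is not exact. The cause of these shifts was not tested. Depth limits miR-27a-5p and miR-23b-5p, with 24 and 6 reads in all.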
